A study of Mus musculus with 4 samples.

Results

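Mcpt8+ Gata2+ cells of the basophil lineage were studied in sorted blood cells of mouse embryos. They were chosen by their UMIs of Mcpt8 and Gata2 (UMIs, unique molecular identifiers, each stand for 1 captured RNA molecule), as barcodes with at least 500 genes, at most 10% mitochondrial UMIs, at least 2 UMIs of Mcpt8 and at least 1 UMI of Gata2. This rule found 894 members among 31153 kept barcodes in 4 libraries. The choice used measured values, so Mcpt8 and Gata2 themselves, and every comparison of members with other cells, are given as a description without a test.

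The study asked how lymphoid tissue inducer (LTi) cells, innate lymphocytes needed for lymph nodes to form, arise in the embryo. Embryos were C57BL/6J mice at E14.5 or E13.5 (days of embryonic development), with no further genotype or treatment given. Cells came from fetal liver or from the embryonic periphery and were sorted as live CD45+ F4/80- IL7Ra+ cells after magnetic enrichment of CD45+ cells. The labels call the sorted cells LTi cells, but do not say how many embryos were pooled. The 4 groups were E14.5 fetal liver, E13.5 fetal liver, E14.5 periphery and E13.5 periphery, with 1 library each. Fetal liver was prepared with version 3 and periphery with version 2 of the 10x Genomics 3' kit. Tissue and kit cannot be told apart, so values of the 2 tissues stand side by side with no fold between them.

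Basophils are granulocytes that store histamine and proteases in granules and carry the high-affinity IgE receptor, through which they release those stores and make cytokines such as interleukin 4. They arise from progenitors that express Gata2 and Cebpa, and Cebpa is known to bear on whether a progenitor becomes a basophil or a mast cell. Mcpt8 encodes a granule protease that marks mouse basophils, while mast cells make other chymases and tryptases.

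Members were 727 of 11702 kept barcodes in E14.5 fetal liver, a share of 6.21% (exact 95% interval 5.78 to 6.67), and 59 of 10641 in E13.5 fetal liver, 0.554% (0.422 to 0.715). In periphery they were 65 of 4505 at E14.5, 1.44% (1.12 to 1.84), and 43 of 4305 at E13.5, 0.999% (0.724 to 1.34). The share at E14.5 was thus 11.2 times that at E13.5 in fetal liver and 1.44 times in periphery. It counts only cells past the Mcpt8 minimum, and in fetal liver the ratio was 10.0 with at least 1 Mcpt8 UMI and 15.5 with at least 5. Kept barcodes of fetal liver with Gata2 and no Mcpt8 went the other way, 376 at E14.5 and 649 at E13.5. The part of the Mcpt8 minimum in the stage difference was not tested. The fetal liver ratio was 19.7 after each cell was thinned to 4000 UMIs and 6.80 at a limit of 5% mitochondrial UMIs, and the periphery ratio was 2.29 with no Gata2 minimum. The fetal liver intervals lie far apart, and the periphery intervals overlap. With 1 library per group there is no replicate check, and all intervals here cover counting error only.

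**Figure D1:**
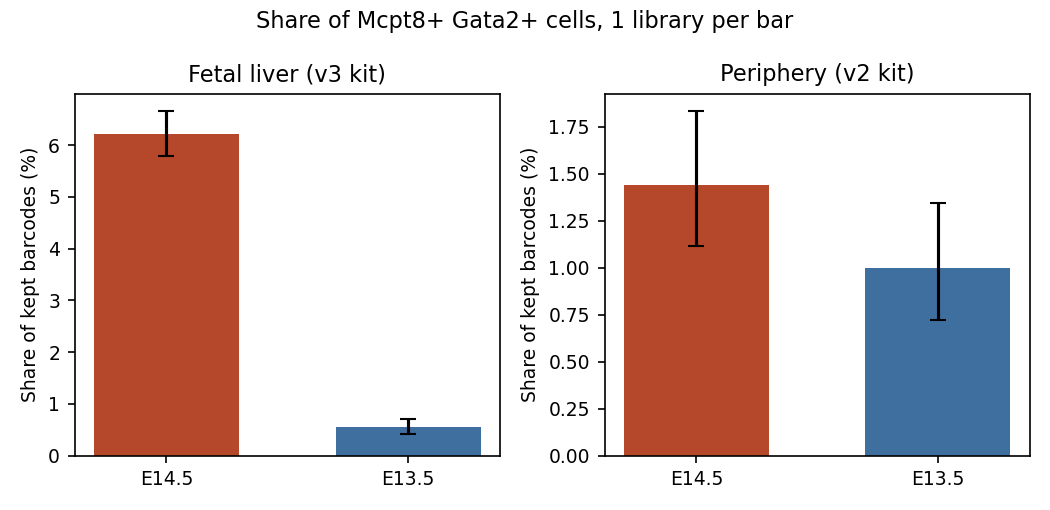
Share of kept barcodes that were Mcpt8+ Gata2+ cells, in percent, for E14.5 and E13.5 in fetal liver (left) and periphery (right); bars are single libraries and error bars are exact Clopper-Pearson 95% intervals. The E14.5 fetal liver bar stands at 6.21% against 0.554% at E13.5, and the periphery bars at 1.44 and 0.999%.

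The libraries held 208229937 and 212034840 UMIs for fetal liver and 44599592 and 53229734 for periphery, at E14.5 and E13.5. Members had a median of 12132 and 17907 UMIs in fetal liver, where other kept cells had 16466 and 18694.5. In periphery members had 14613 and 17316, more than the 8494 and 11128.5 of other cells. Scrublet, a doublet caller, marked 161 members (22.1%) in E14.5 and 10 (16.9%) in E13.5 fetal liver, and 4 (6.15%) and 5 (11.6%) in periphery. Over all kept barcodes it marked 7.43, 3.93, 3.35 and 3.25% in the same order of libraries. In periphery the automatic threshold marked 0 and 0.116%, so the cut there was set at the expected rate. The 2 periphery shares over all barcodes were thus fixed in advance, unlike those of fetal liver. Marked barcodes were kept in, as the rule does not drop them. Some results are also given without them, and values given only once include them. The 2 libraries of fetal liver shared 29 barcodes, with no member, and those of periphery 33, with 1 member (E14.5), while 1 more was shared by the E13.5 libraries.

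Mcpt8 itself had a median of 16 UMIs per member (range 2 to 108) in E14.5 and 7 (2 to 47) in E13.5 fetal liver. In periphery members the median was 81 (2 to 602) at E14.5 and 79 (2 to 547) at E13.5. Summed over members, Mcpt8 stood at 1402 and 527 CPM (UMIs per 1000000 UMIs of the set of cells) in fetal liver and 7933 and 5662 CPM in periphery at E14.5 and E13.5. Other cells had 2.53 and 0.157 CPM in fetal liver and 10.7 and 1.31 CPM in periphery. Members thus held 96.9, 95.1, 94.6 and 98.6% of all Mcpt8 UMIs of kept cells, at E14.5 and E13.5 in fetal liver and then in periphery. Of the other cells, 3.49, 0.293, 5.23 and 1.55% held a Mcpt8 UMI. B cells, which should lack the gene, held one in 3.28, 0, 4.15 and 1.15% of barcodes, at median depths of 18094, 15652, 19395 and 16026 UMIs. In periphery the other cells held Mcpt8 more often than B cells at lower median depths, 8494 and 11128.5 UMIs. How much of the shares in other cells is background was not tested.

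At the edge of the rule in E14.5 fetal liver, 60 members had exactly 2 Mcpt8 UMIs and 20 had exactly 1 Gata2 UMI. Just outside stood 68 barcodes with 1 Mcpt8 UMI and Gata2, and 14 with Mcpt8 and no Gata2. The first of these outside groups had 1527 CPM of Cpa3 and 858 CPM of Hdc, close to the 1478 and 1190 CPM of the members with 2 Mcpt8 UMIs. The second had 440 CPM of Cpa3 and 334 CPM of the B cell gene Cd79a. In E13.5 fetal liver, 13 barcodes had 1 Mcpt8 UMI and Gata2, with 1682 CPM of Cpa3 and 1650 CPM of Hdc. The 10 members there with exactly 2 Mcpt8 UMIs had 1387 and 1763 CPM. In E14.5 periphery, 43 barcodes had at least 2 Mcpt8 UMIs and no Gata2, with a median of 1148 UMIs in total and 6 of Mcpt8. They had 1981 CPM of Mcpt8, 808 CPM of Hdc, 306 CPM of Cpa3, no Ms4a2 and 597 CPM of Cd79a.

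The label was checked against other basophil genes. Cpa3, Hdc and Ms4a2 were all detected in 685 of 727 members of E14.5 fetal liver (94.2%) and in 59 of 59 of E13.5 fetal liver. In periphery they were all detected in 52 of 65 (80.0%) and 32 of 43 members (74.4%). Counts over lists leave out the genes that chose the cells, here Mcpt8 and Gata2. Of the remaining basophil granule and mediator genes, 25 of 27 measured genes were higher in members than in other cells of E14.5 fetal liver, with a median log2 fold of 4.15. A gene counted as measured at 10 CPM and 10 UMIs or more in either set, and as higher or lower at a log2 fold of at least 1 in size. Each fold had 5 CPM added to either level, so that folds of weak genes are too small, and is relative to the median over all measured genes. Over all 8070 measured genes, 10.8% were higher and 2.61% lower in that comparison, and without marked doublets 15.2 and 9.35% of 8185.

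The other libraries gave similar counts. Of the basophil list, 24 of 28 measured genes were higher and 1 lower in E13.5 fetal liver (median 4.08), where 10.8% of all genes were higher and 4.09% lower. In periphery 25 of 26 were higher at E14.5 (median 5.47; 11.2% of all genes higher, 8.92% lower). At E13.5, 25 of 27 were higher and 1 was lower (4.67; 10.8% higher, 9.62% lower). These shares over all genes also apply to each later list set against other cells of the same library. The summed level of the list was 28573 and 28303 CPM in fetal liver members, against 2124 and 2531 CPM in other cells. In periphery it was 58430.2 and 55390.2 CPM in members, against 2729.5 and 4095 CPM in other cells. Basophil genes that the rule did not use were thus high in members of each library, although genes detected together with Mcpt8 and Gata2 are no independent test of the label, and 3 cells of E14.5 periphery had other markers.

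Granule proteases and enzymes were high in members. Prss34, a tryptase-like protease of basophils, had a level of 939.6 (922 to 958) and 442 (406 to 481) CPM in fetal liver members at E14.5 and E13.5, against 5.59 and 1.43 CPM in other cells. In periphery it stood at 444 and 307 CPM in members, against 0.487 and 1.54 CPM. The log2 folds over other cells were 6.60 and 6.26 in fetal liver and 6.61 and 5.76 in periphery. Prss34 was thus high in members and rare in other cells of every library.

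Cpa3, a carboxypeptidase stored in granules of basophils and mast cells, was at 2028 (2002 to 2055) and 1777 (1703 to 1853) CPM in fetal liver members and at 3895 and 2708 CPM in periphery members. Other cells had 28.4 and 27.0 CPM in fetal liver and 30.4 and 63.2 CPM in periphery. Hdc, the enzyme that makes histamine, stood at 1191 and 1847 CPM in fetal liver and 3426 and 3082 CPM in periphery, against 17.3 to 21.1 CPM in other cells. Its fold was 5.87 and 6.38 in fetal liver and 7.30 and 7.07 in periphery. Srgn, the core protein that packs granule contents, was at 4769 and 5267 CPM in fetal liver members against 502 and 628 CPM, and Cd63, a granule membrane protein that reaches the surface on degranulation, was at 2107 and 2280.4 CPM against 45.5 and 61.3 CPM. In periphery their folds were 4.14 and 3.45 for Srgn and 5.69 and 5.06 for Cd63, so both were higher in members of every library.

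Genes of lipid mediators were split. Alox5, the enzyme that starts leukotriene synthesis, stood at 320.2 and 449 CPM in fetal liver members (fold 5.21 at E14.5), and its partner protein Alox5ap at 1729 and 1420.2 CPM (4.14 at E14.5). Ltc4s, the next enzyme towards cysteinyl leukotrienes, was at 0.810 CPM in E14.5 fetal liver members and at 0 in those of E13.5. Hpgds, a prostaglandin D2 synthase of mast cells, was at 1.44 and 11.4 CPM in fetal liver members against 7.34 and 24.8 CPM in other cells. Neither of these enzymes of later steps was past the fold in fetal liver members. Cyp11a1, which starts steroid synthesis from cholesterol, stood at 512 and 262 CPM in fetal liver and 869 and 722 CPM in periphery members, against at most 3.90 CPM in other cells. Grm6, a glutamate receptor gene, was at 88.2 and 60.2 CPM in fetal liver and 120.2 and 42.5 CPM in periphery members and at most 0.979 CPM in other cells.

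Cytokine and chemokine genes were high in members too. Il4, the main type 2 cytokine of basophils, stood at 96.4 (90.8 to 102) and 92.0 (75.8 to 111) CPM in fetal liver members and at 278 (246 to 312) and 219.9 (189 to 254) CPM in periphery members. It was detected in 72.8% of members of E14.5 and 74.6% of E13.5 fetal liver, and in 93.8 and 88.4% of periphery members. Il13 was at 47.9 and 92.0 CPM in fetal liver and 301 and 707 CPM in periphery, whereas Il6 was at 144 and 118 CPM in fetal liver and 1599 and 1839.5 CPM in periphery. Other cells had at most 3.69 CPM of Il4 and 12.5 CPM of Il6. Among chemokines, which attract leukocytes, Ccl3 stood at 1169 and 996 CPM in fetal liver and 2617 and 3214 CPM in periphery members. Ccl9 stood at 639 and 404 CPM in fetal liver and 3708 and 2098 CPM in periphery members, against at most 39.7 CPM in other cells. Osm (oncostatin M) was at 354 and 229 CPM in fetal liver and 2086 and 1013 CPM in periphery, with folds from 5.12 to 7.57 over the 4 libraries. Csf1, the growth factor of macrophages, was at 168 and 126 CPM in fetal liver and 102 and 102 CPM in periphery members, against at most 3.57 CPM in other cells.

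The IgE receptor has an alpha chain that binds IgE (Fcer1a), a beta chain (Ms4a2) and a gamma chain shared with other Fc receptors (Fcer1g). Fcer1a stood at 78.3 and 103 CPM in fetal liver members and 109 and 86.3 CPM in periphery members, against at most 0.555 CPM in other cells. Ms4a2 stood at 457 and 386 CPM in fetal liver members and 252 and 209 CPM in periphery members, against at most 4.74 CPM. Fcer1g was at 1647 and 1568 CPM in fetal liver and 2733 and 2688 CPM in periphery members, and other cells had 127 and 179.7 CPM in fetal liver and 715 and 908 CPM in periphery. All 3 chains were thus present together in the summed RNA of each library, though single cells often held no Fcer1a UMI, which was detected in 43.6, 55.9, 40.0 and 53.5% of members.

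Genes downstream of the receptor were split. Of the list of receptor chains and signalling genes, 8 of 16 and 8 of 17 measured genes were higher in fetal liver members at E14.5 and E13.5, with 0 and 2 lower. In periphery 9 of 15 and 8 of 15 were higher, with 0 and 1 lower. Without marked doublets 8 of 16 were higher and 1 lower in E14.5 fetal liver. Over all measured genes, 10.8 and 10.8% were higher and 2.61 and 4.09% lower in fetal liver members. In periphery 11.2 and 10.8% of all were higher and 8.92 and 9.62% lower. Lat2, an adaptor of mast cells and B cells, stood at 218 and 247 CPM in fetal liver members against 42.2 and 55.8 CPM in other cells, and Lcp2, another adaptor, had folds of 2.77 and 1.92. Lat, the adaptor of T cells and mast cells, had folds of 2.82 and 3.37 there. Syk, the kinase that docks on the gamma chain, was at 36.6 and 30.9 CPM in members against 54.1 and 47.4 CPM (folds -0.39 and -0.40). Lyn, the kinase bound to the beta chain, was at 87.1 and 88.7 against 70.9 and 87.9 CPM (0.40 and 0.16). Fyn, a related kinase, had folds of 1.06 and 1.18 in fetal liver, and Btk had 1.94 and 1.13 in periphery, where Lyn also reached 1.14 at E14.5.

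Among surface receptors, 23 and 24 of 36 measured genes of the list were higher in fetal liver members at E14.5 and E13.5, with 2 and 5 lower. In periphery 24 of 33 and 22 of 34 were higher, with 3 and 4 lower. Without marked doublets 25 of 37 were higher and 3 lower in E14.5 fetal liver. The shares of all measured genes that were higher were 10.8 and 10.8% in fetal liver and 11.2 and 10.8% in periphery. The receptors of interleukin 3, the growth factor of basophils, are built of Il3ra with Csf2rb or its mouse copy Csf2rb2. Il3ra stood at 181 and 120.5 CPM in fetal liver members and 138 and 188 CPM in periphery, against at most 27.2 CPM in other cells. Csf2rb stood at 321 and 364 CPM in fetal liver and 395 and 286 CPM in periphery members, against at most 15.2 CPM in other cells. Csf2rb2 was at 49.1 and 40.7 CPM in fetal liver, and reads of the 2 near-identical copies may have been split by the counting. Il1rl1, the interleukin 33 receptor, was at 99.9 and 92.0 CPM in fetal liver and 144 and 81.4 CPM in periphery members, and at most 1.39 CPM in other cells.

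Cd200r3, an activating receptor of basophils and mast cells, was one of the genes with the highest folds, at 768 and 717 CPM in fetal liver (folds 6.19 and 6.23) and 667 and 584 CPM in periphery members (6.56 and 5.75). Itga2, the integrin chain known as CD49b that is used to stain basophils, was low at 22.8 and 25.2 CPM in fetal liver and 13.8 and 3.65 CPM in periphery members. Itgb7 stood at 326 and 278 CPM in fetal liver members against 27.9 and 56.2 CPM in other cells. Emilin2, a secreted matrix protein, was at 397 and 480.2 CPM against 5.24 and 7.24 CPM.

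The proteins used for sorting can be set beside their RNA. Il7r, whose protein was the positive gate, stood at 166 (159 to 174) and 112 (93.6 to 132) CPM in fetal liver members, against 190.01 and 151 CPM in other cells. In periphery it was lower in members, at 138 (116 to 163) and 86.3 (67.4 to 109) CPM against 401 and 214 CPM (folds -1.25 and -1.08). At a fixed depth of 4000 UMIs per cell, 45.5 and 31.8% of fetal liver members and 51.0 and 42.1% of other cells would hold an Il7r UMI. Adgre1, which encodes the F4/80 antigen of the negative gate, was at 52.2 and 42.3 CPM in fetal liver members and 93.6 and 54.7 CPM in periphery members, against at most 7.97 CPM in other cells. Il7r RNA was thus present in members of each library, and Adgre1 RNA was higher in members than in other cells (folds 3.31, 2.92, 3.60 and 2.38).

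**Figure D2:**
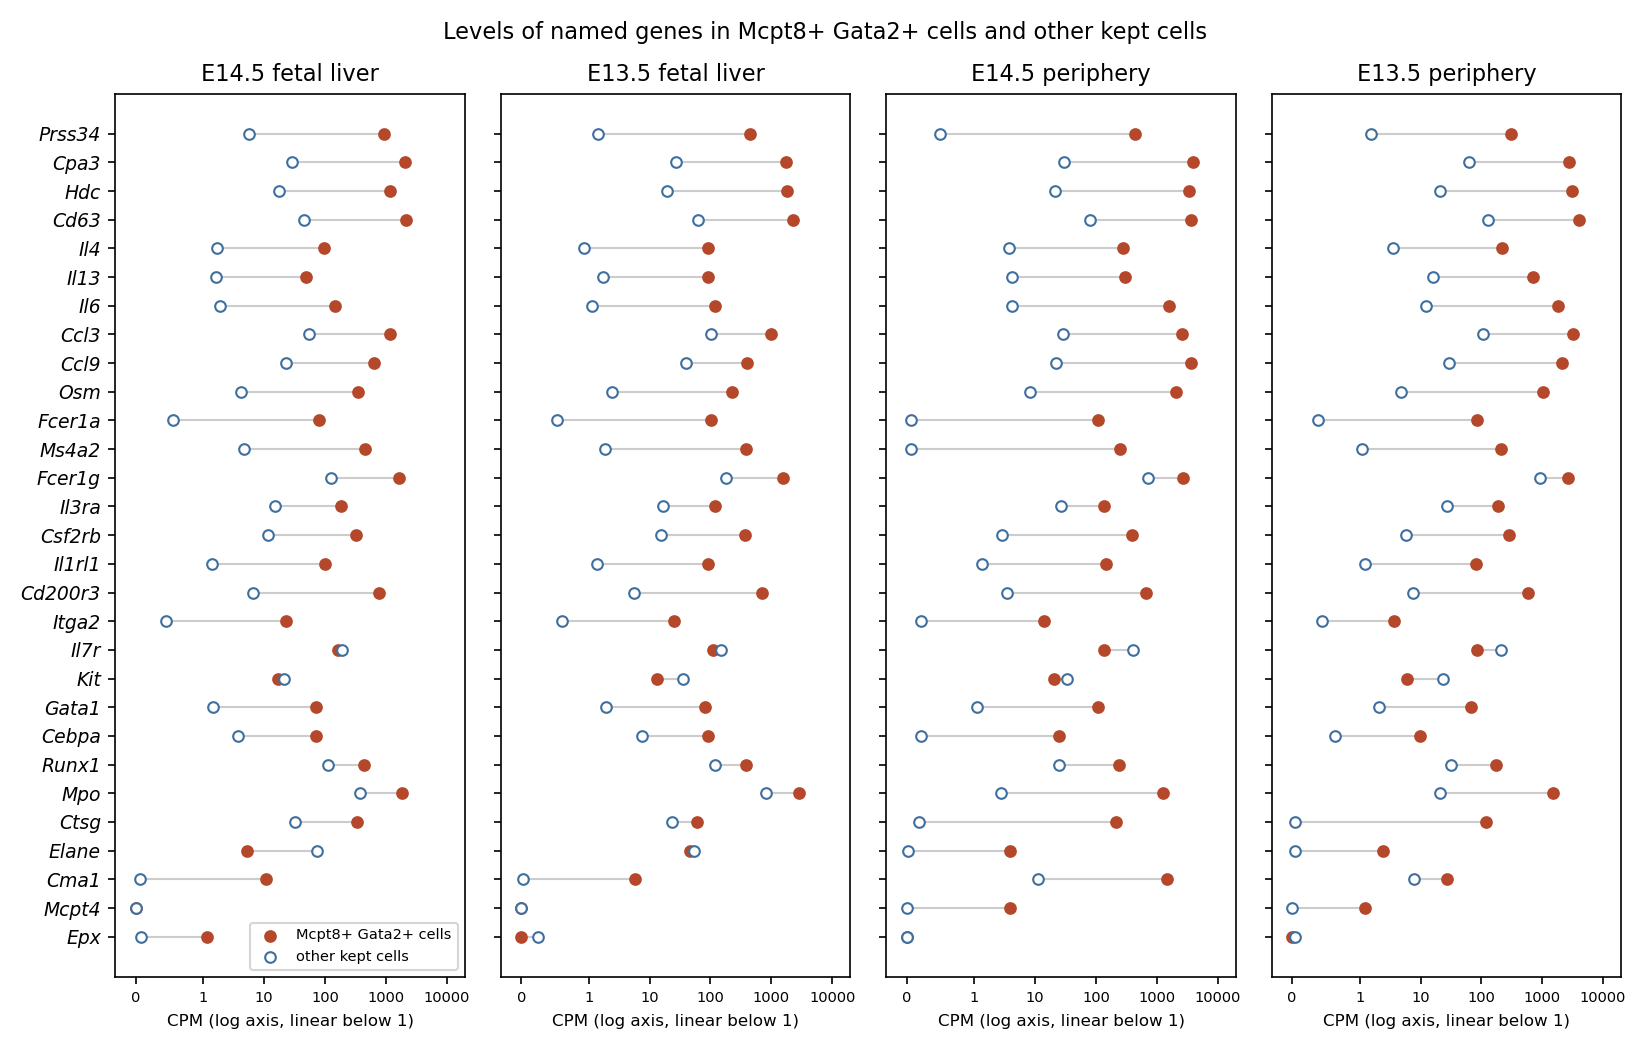
Levels of 29 named genes, in CPM on a log axis that is linear below 1, in Mcpt8+ Gata2+ cells (filled) and other kept cells (open) of each library. The basophil and IgE receptor genes lie to the right in members of every panel, Il7r lies at or left of the other cells, and Mcpt4 and Epx stay near 0 except for a few CPM.

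Transcription factors moved in both directions. Of the list of transcription factors, other than Gata2, 13 of 32 measured genes were higher and 8 lower in E14.5 fetal liver members, and 9 higher and 9 lower of 32 at E13.5. In periphery 13 of 30 were higher and 7 lower at E14.5, and 7 of 23 higher and 7 lower at E13.5. Of all measured genes, 10.8 and 10.8% were higher and 2.61 and 4.09% lower in fetal liver members. In periphery it was 11.2 and 10.8% higher and 8.92 and 9.62% lower. Without marked doublets, and with Gata2 counted, 16 of 34 factors were higher and 13 lower in E14.5 fetal liver. Gata2, which was part of the rule, stood at 789 and 676 CPM in fetal liver and 474 and 369 CPM in periphery members. Gata1, a related factor of erythroid, mast cell and basophil lineages, was at 70.7 and 82.2 CPM in fetal liver members and 107 and 66.8 CPM in periphery members, and at most 2.09 CPM in other cells. Runx1, which is required for normal basophil numbers in mice, was at 434 and 379 CPM in fetal liver members against 112 and 119.6 CPM in other cells, and at 240.4 and 173 CPM against 25.2 and 31.7 CPM in periphery.

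C/EBP factors are given for each tissue. Cebpa, needed for granulocyte and basophil progenitors, stood at 71.1 (66.2 to 76.2) and 91.2 (75.1 to 109.7) CPM in fetal liver members and at 24.6 (15.9 to 36.4) and 9.72 (4.20 to 19.2) CPM in periphery members. Cebpb was at 855 and 595 CPM in fetal liver members and at 37.4 and 2.43 CPM in periphery members, and other cells of periphery had 3.55 and 1.77 CPM. Tissue and kit cannot be told apart here, and the feature lists of the 2 tissues also differ. Mitf, a mast cell factor, was at 0.901 CPM in E14.5 and 0 in E13.5 fetal liver members. Irf8 and Mef2c, factors of monocyte, dendritic and lymphoid progenitors, were lower, with Mef2c at 165 and 158 CPM in fetal liver members against 490.4 and 589.7 CPM (folds -1.43 and -1.72). Without barcodes marked as doublets, Mef2c was at 19.9 and 40.4 CPM in members.

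The highest folds in fetal liver at both stages were Mcpt8, Prss34, Cd200r3, Cpa3, Hdc, Gata2, Ms4a2, Cyp11a1, Emilin2, Cd63, Alox5 and Osm. Mcpt8 and Gata2 chose the cells, so their place here is no result. For 11 of these genes RefSeq gave a promoter window on build GRCm38.p6, from 250 bases before to 50 after the start. The GATA motif AGATAA, on either strand, was in 4 of the 11 windows taken, 1 a gene (Prss34, Cpa3, Ms4a2 and Cd200r3), and in 11.2% of all 32851 windows. The 100 bases before the start of these 4 genes are shown, since all 4 hold the motif there, with each match in capitals.
Prss34, chr17:25298294-25298393, plus strand: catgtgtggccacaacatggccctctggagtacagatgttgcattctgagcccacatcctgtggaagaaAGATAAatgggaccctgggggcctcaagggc
Cpa3, chr3:20242182-20242281, minus strand: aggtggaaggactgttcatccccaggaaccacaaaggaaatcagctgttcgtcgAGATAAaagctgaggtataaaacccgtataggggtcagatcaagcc
Ms4a2, chr19:11623720-11623819, minus strand: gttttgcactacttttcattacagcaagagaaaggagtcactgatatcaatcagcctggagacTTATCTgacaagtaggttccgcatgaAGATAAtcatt
Cd200r3, chr16:44943578-44943677, plus strand: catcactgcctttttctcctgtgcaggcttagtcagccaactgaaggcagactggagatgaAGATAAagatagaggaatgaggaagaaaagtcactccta

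The matches begin 31 bases before the start in Prss34, 46 in Cpa3, 39 in Cd200r3, and 37 and 11 in Ms4a2, which has another at 224. The RUNX motif TGTGGT was in 3 of the 11 windows (Mcpt8, Cpa3 and Cyp11a1) and in 16.8% of all windows. The C/EBP motif TTGCNNAA was in 1 (10.8% of all) and the STAT motif TTCNNNGAA in none (8.30% of all). Some genes had a second window that was not counted. That of Cyp11a1 held a C/EBP match and that of Emilin2 a STAT match. Motifs were searched on both strands, and a match describes the letters of the window and no binding. The genes were ranked in cells chosen by Mcpt8 and Gata2, and windows of both are among the 11. These shares are thus a description and no test.

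Most defining mast cell genes were at 0 in fetal liver members. The mast cell list holds 19 genes, and of those measured, Gata2 left out, 7 of 8 were higher in E14.5 fetal liver members and 6 of 7 in those of E13.5, with 0 and 1 lower. Those higher include Cpa3, Hdc, Ms4a2, Fcer1a and Slc18a2, which basophils express too. The defining mast cell genes Mcpt4, Mcpt1, Mcpt2, Tpsb2, Tpsab1, Tpsg1 and Mrgprb2 had 0 UMIs in all fetal liver members. Cma1 stood at 10.6 and 5.70 CPM there, and Kit, the receptor that marks mast cells, at 16.7 and 13.0 CPM against 20.9 and 35.6 CPM in other cells. A direct comparison with mast cells could not be made, since the rule for them (no Mcpt8, at least 1 Kit UMI and at least 2 UMIs summed over Cma1, Mcpt4 and Tpsb2) found 0, 1, 1 and 5 cells.

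Of the eosinophil list, 3 of 3 measured genes were higher in members at both stages in fetal liver (medians 2.99 and 2.94), and 2 of 2 at both stages in periphery (3.54 and 2.81). Among genes of eosinophil granules, the peroxidase Epx was at 1.17 CPM in E14.5 fetal liver members and 0 in the other libraries, and Prg3 was at 0 in all. Siglecf and Alox15, which are not limited to eosinophils, had folds of 2.79 and 4.93 in E14.5 fetal liver, with Alox15 at 216 and 221 CPM in fetal liver members against 2.87 and 2.36 CPM in other cells. Innate lymphoid genes, which the gate was meant to hold, were lower in periphery members. There 12 of 12 measured genes of the innate lymphoid list were lower in members at E14.5 (median -3.44) and 10 of 11 at E13.5 (-3.78). In fetal liver 5 genes of that list were measured at each stage, 1 of them higher and 1 lower in members. Without marked doublets 1 was higher and 3 were lower of 5 in E14.5 fetal liver. The T and NK cell list summed to 468 and 462 CPM in fetal liver members against 90.9 and 109 CPM in other cells. Nkg7 alone was at 438 and 427 CPM in those members. The B lineage list had 11 of 12 and 7 of 7 measured genes lower in fetal liver members and 11 of 11 and 9 of 9 in those of periphery. Without marked doublets 12 of 12 were lower in E14.5 fetal liver, with a median of -3.61 instead of -1.57.

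Neutrophil granule genes were split. Mpo, the peroxidase of azurophil granules, was at 1829 (1804 to 1855) and 2909 (2814 to 3006) CPM in fetal liver members and 1248 (1180.3 to 1319) and 1489.6 (1407 to 1575) CPM in periphery members, against 382 and 817 CPM in other cells of fetal liver and 2.71 and 20.6 CPM in those of periphery. It was detected in 95.7% and 100% of fetal liver members and in 80.0 and 97.7% of periphery members. Its fold was 2.37 and 1.97 in fetal liver and 7.60 and 6.05 in periphery, where few other cells held it. Elane, the neutrophil elastase, was at 5.31 and 46.4 CPM in fetal liver members against 74.4 and 53.1 CPM. S100a8, which encodes a calcium-binding protein of maturing neutrophils, was at 2.16 and 8.14 against 48.3 and 91.6 CPM (folds -2.78 and -2.73).

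Set directly against granulocyte precursors of fetal liver, members were about 1 log2 unit below them in Mpo and far below them in most other granule genes. These precursors were barcodes with no Mcpt8, at least 2 Mpo and at least 1 Elane UMI, 266 at E14.5 and 421 at E13.5. Since Elane and Mpo chose them, both levels are a description. Mpo was at 1829 CPM in members against 3834 CPM in precursors at E14.5, and at 2909 against 5787 CPM at E13.5. Elane was at 5.31 against 2172 CPM and at 46.4 against 1091 CPM. Prtn3, a further serine protease of these granules, was at 153 against 4724 CPM (-4.82) and at 387 against 4198 CPM (-3.33). Of the neutrophil list without Mpo and Elane, 9 of 9 measured genes were lower in members at both stages, with medians of -4.40 and -3.59. Over all genes 8.89% were higher and 2.19% lower at E14.5, and 8.84% and 3.64% at E13.5.

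Ctsg (cathepsin G) was lower by less, at 341 CPM in members against 807 CPM in precursors at E14.5 (fold -1.15, or -0.71 without marked doublets). At E13.5 it was at 59.4 against 422 CPM (-2.64). Cebpe, a factor of later granulocyte stages, had 1 UMI in E14.5 members (0.0901 CPM) against 99.5 CPM in precursors, a log2 ratio from -15.34 to -7.55 by counting error. Cebpa went the other way, at 71.1 against 13.6 CPM (2.11). The basophil list without Mcpt8, which the precursors lack by their rule, was higher in members for 24 of 27 and 23 of 28 measured genes, with Cyp11a1 at 6.22 and 5.52 and Cpa3 at 5.32 and 5.80.

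Kept barcodes with Gata2 and no Mcpt8 shared 1 of the 2 markers with the members. In E14.5 fetal liver there were 376 of them, and in E13.5 fetal liver 649, for which no folds are given. Of the basophil list without Mcpt8, 24 of 27 measured genes were higher in members (median 2.31), where 7.13% of all genes were higher and 1.51% lower. Cpa3 stood at 2028 CPM in members against 301 CPM (2.83), Prss34 at 939.6 against 72.0 CPM (3.71), and Ccl3 at 1169 against 151 CPM (3.01). Of the stem and progenitor list, 7 of 14 measured genes were lower in members, among them Cd34, a surface marker of progenitors, at 77.7 against 255 CPM (-1.55).

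Several of the proteases named lie in one stretch of chromosome 14. On build GRCm38 (GENCODE M21), Cma1, Mcpt1, Mcpt2, Mcpt4, Mcpt8, Ctsg and Gzmb lie between positions 55941451 and 56262260, a stretch of 321 kilobases with 15 protein-coding genes in all. Mcpt8 spans 56082166 to 56085273 and Ctsg 56099881 to 56102574. Within it, members of E14.5 fetal liver had Mcpt8 at 1402 CPM, Ctsg at 341 CPM, Gzmb (granzyme B) at 26.1 CPM, Cma1 at 10.6 CPM and no UMI of the other 3. In E13.5 fetal liver the same 4 genes, in that order, were at 527, 59.4, 120.5 and 5.70 CPM. Mcpt1 and Mcpt2 are near copies, so reads may have been split between them.

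Between the stages, E14.5 and E13.5 members of fetal liver differed in few genes. Of 7798 measured genes, 69 (0.885%) were higher and 29 (0.372%) lower at E14.5. Among other cells 1.18% were higher and 0.402% lower. Of the basophil list without Mcpt8, 3 of 28 measured genes were higher and 2 lower (median 0.10), and the IgE receptor list and the factor list had none of 16 and, without Gata2, none of 30 past the fold. The stage difference in the number of members was thus not matched by one in most of their basophil genes.

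Some proteases were the exception. Mcpt8 stood at 1402 (1379.8 to 1424) CPM at E14.5 against 527 (487 to 569) CPM at E13.5 (fold 1.40, 1.52 without marked doublets), though it was part of the rule. Prss34 was at 939.6 against 442 CPM (1.08, 1.26 without), and Ctsg at 341 (331 to 352) against 59.4 (46.6 to 74.7) CPM (2.42, 2.63 without). Ccl6, a chemokine, was at 150.5 against 39.9 CPM (1.79). Prss34 and Ctsg, which the rule did not use, were thus higher in E14.5 members, while Gzmb, in the same stretch of chromosome 14 as Ctsg, was lower.

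Other granule genes were lower at E14.5. Elane was at 5.31 CPM against 46.4 CPM at E13.5 (-2.32), Prtn3 at 153 against 387 CPM (-1.31) and Ms4a3, a membrane protein of granulocyte progenitors, at 19.5 against 78.9 CPM (-1.78). Gzmb was at 26.1 against 120.5 CPM (-2.02), while in periphery it was at 508 against 219 CPM (1.06), where 1 of 65 E14.5 members held 192 of its 516 UMIs. Hdc (-0.64) and Mpo (-0.67) were under 1 log2 unit in size, as were Cpa3 (0.19) and Gata2 (0.22). Of the immediate early genes, Jun was at 819.7 against 356 CPM (1.19), and Junb (1.05) and Ier2 (1.05) were also past the fold, which in other cells were at 0.27, 0.25 and 0.21.

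**Figure D3:**
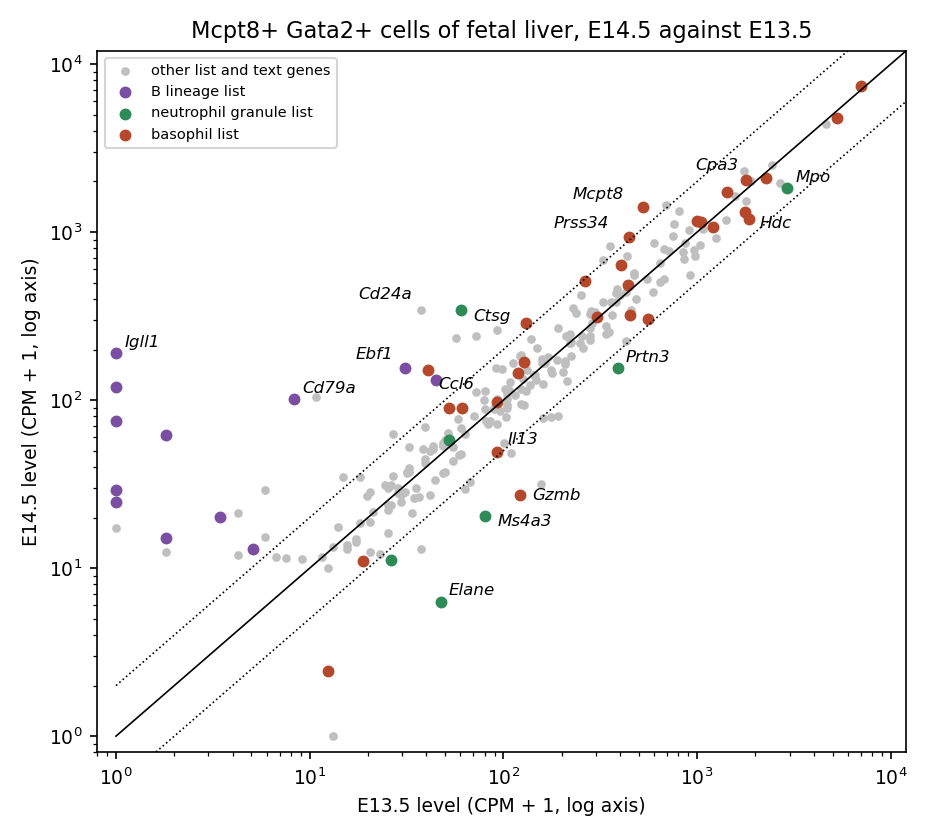
Levels in Mcpt8+ Gata2+ cells of fetal liver at E14.5 (vertical) and E13.5 (horizontal), in CPM plus 1 on log axes; points are genes of the lists and the text, the solid line marks equal levels and the dotted lines a 1 log2 unit difference without the median taken off. Ctsg, Ccl6 and Mcpt8 lie above the upper dotted line, Elane, Gzmb, Ms4a3 and Prtn3 below the lower, and B lineage genes in the upper left.

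RNA of B cells moved with the stage as well. Of the B lineage list, 11 of 12 measured genes were higher in E14.5 than in E13.5 members (median 2.63), and in other cells 12 of 12 were (3.20). The summed level of the list was 928 CPM in E14.5 against 89.5 CPM in E13.5 members, and 3281 against 329 CPM in other cells. Igll1, part of the surrogate light chain of pre-B cells, was at 189 CPM in E14.5 members and at 0 in those of E13.5, at least 77.5-fold higher against a limit of 3 counts over the set. At least 3 UMIs of B cell genes were found in 114 E14.5 members (15.7%), and 93 of these 114 were among the marked doublets. Without those 114 members 3 of 5 measured B lineage genes were still higher at E14.5 (median 1.67), and without marked doublets 3 of 4 (2.04). Fewer genes of the list were thus measured in these sets. Of all measured genes, 0.826% of 7749 were higher without the 114 members and 1.11% of 7534 without marked doublets. The fold of Ebf1, a B cell factor, was -0.22 without the 114 members, which were left out for their B cell RNA, and 1.95 without marked doublets, against 2.18 over all, while without the 114 those of Ctsg (2.68), Mcpt8 (1.68) and Elane (-2.15) had the sign they had over all members.

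In periphery, 251 of 6493 measured genes (3.87%) were higher in E14.5 than in E13.5 members and 135 (2.08%) lower, among 65 and 43 cells. Other cells had 1.42% higher and 2.43% lower. Of the basophil list without Mcpt8, 3 of 26 measured genes were higher and 1 lower (median -0.05), and the IgE receptor list had none of 15 past the fold. Mcpt8 (0.35), Prss34 (0.39), Cpa3 (0.39) and Hdc (0.01) were all under 1 log2 unit in size.

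Chemokine and cytokine genes moved in both directions. Ccl6 stood at 588 (542 to 637) CPM in E14.5 against 29.2 (18.7 to 43.4) CPM in E13.5 members (3.98). At E14.5 it was detected in 35.5% of the 62 members without high Cma1, and 1 cell held 246 of the 597 UMIs. Il13 was lower, at 301 (269 to 337) against 707 (651 to 767) CPM (-1.35; in other cells 4.20 against 15.9 CPM), as was Spp1 (osteopontin), at 602 against 1251 CPM (-1.19). Il1b was at 32.5 against 431 CPM in members (-3.68) and at 2.23 against 55.0 CPM in other cells (-3.29), so it was lower in both.

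Of the factor list without Gata2, 6 of 25 measured genes were higher in E14.5 periphery members and 1 was lower. Id2, an inhibitor of E proteins, was at 298 against 31.6 CPM (2.91), and in other cells at 1551 against 411 CPM (1.67). Cebpb was at 37.4 against 2.43 CPM, the second value resting on 2 UMIs, with a log2 ratio from 1.86 to 6.90 by counting error. Dusp1, an immediate early phosphatase, was at 668 against 152 CPM (1.96; 0.95 in other cells). The innate lymphoid list, whose genes fill the other cells, had 5 of 6 measured genes higher in E14.5 members. Its summed level was 357 against 91.1 CPM in members and 5213 against 2599 CPM in other cells, and the part of RNA from other cells in these folds was not tested.

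Of the mast cell list without Gata2, 7 of 13 measured genes were higher in E14.5 than in E13.5 periphery members, and 3 cells held most of the RNA of Cma1, Mcpt1 and Mcpt2. These 3 members had 490, 568 and 399 Cma1 UMIs, and 9, 6 and 5 of Mcpt8. They held 98.6% of the Cma1 UMIs of all 65 members, 16.7% of those of Cpa3 and 6.27% of those of Hdc, and 1 of them held all 114 Mcpt1 and all 108 Mcpt2 UMIs. Mpo and Ctsg were at 0 in them, Kit at 174 CPM against 8.51 CPM in the other 62 members, and none was marked as a doublet. Their markers are thus those of mast cells, although they passed the rule. In the other 62 members Cma1 was at 22.3 CPM, Mcpt8 at 8542, Cpa3 at 3502 and Mpo at 1347 CPM, and the stage fold of Cma1 was -0.35 instead of 5.39. Without the 3 cells none of the 8 measured mast cell genes was past the fold, and the basophil list (Mcpt8 included) had 3 higher and 1 lower of 27. Of all 6487 genes measured then, 3.73% were higher and 2.33% lower.

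**Figure D4:**
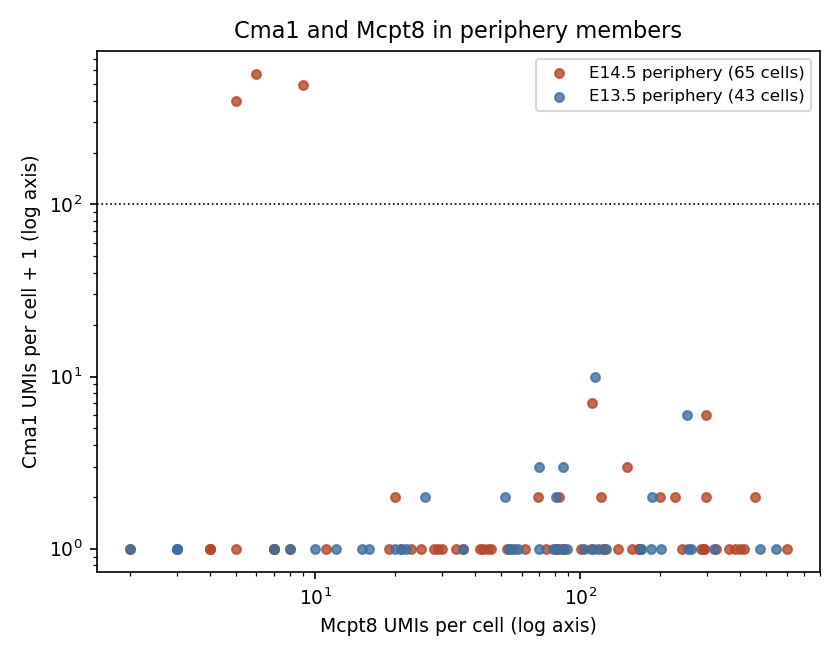
Cma1 UMIs plus 1 (vertical) against Mcpt8 UMIs (horizontal), both on log axes, in each member of E14.5 periphery (65 cells) and E13.5 periphery (43 cells); the dotted line marks 100 Cma1 UMIs. The 3 cells above it, all E14.5, have 5 to 9 Mcpt8 UMIs, and every other cell lies far below.

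Members also varied among themselves, which is given mostly for E14.5 fetal liver, the library with the most members. The members of this library were put in 3 bins by their share of Mcpt8 UMIs, with 243, 242 and 242 cells from low to high. Marked doublets made up 41.2, 21.5 and 3.72% of the bins, and median depth was 16035, 11842 and 10764.5 UMIs. The bins were therefore also formed over the 566 unmarked members, with 189, 189 and 188 cells and median depths of 11248, 10201 and 10751.5 UMIs, and values are given for these, with those of all members in brackets.

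Prss34 climbed with Mcpt8, at 910.4, 1212 and 1814 CPM in the low, middle and high bin of unmarked members (536, 1018 and 1584 of all). Ctsg did too, at 254, 459.6 and 689.5 CPM (178, 346 and 637), and Cpa3 less, at 2320.00, 2789 and 3116 CPM (1414, 2139 and 3019). Hdc was nearly level, at 1523, 1655 and 1712 CPM (868, 1296 and 1648). Of the basophil list, 17 of 28 measured genes were ordered from low to high and 1 from high to low, Mcpt8 itself being one of the 17. Over all 7662 measured genes, 18.6% were ordered upwards and 22.4% downwards. In bins of all members of E13.5 fetal liver, 19 of 29 genes of the list were ordered upwards and 3 downwards (15.6 and 21.8% of all genes). In periphery it was 8 of 28 upwards and 1 downwards at E14.5 (16.7 and 16.1% of all genes). At E13.5 it was 6 of 28 and 4 (18.6 and 16.7%), so the order was weaker in periphery.

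Progenitor genes ran the other way, as did Mpo, a gene of the neutrophil granule list, in unmarked members. Mpo was at 2781, 2322 and 1912 CPM from the low to the high bin (nearly level at 1872, 1799 and 1790.2 of all members). Sox4, a factor of progenitors, was at 55.6, 16.1 and 12.2 CPM (251, 117 and 23.3), Hmga2, a chromatin protein of fetal stem cells, at 81.2, 17.0 and 13.3 CPM (297, 108 and 34.9), and Flt3, a growth factor receptor of lymphoid and myeloid progenitors, at 15.6, 4.26 and 3.57 CPM (73.3, 33.9 and 12.8). Of the stem and progenitor list, 8 of 10 measured genes were ordered downwards and none upwards. The low bin of Sox4, Hmga2 and Flt3 was thus much lower without the marked doublets, and the part of doublets in the order that is left was not tested.

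Cell cycle genes were ordered as well in E14.5 fetal liver. Of the G2/M list, 17 of 18 genes were ordered upwards in unmarked members, with a summed level of 4706, 5715 and 6381 CPM, and of the S phase list 11 of 18 downwards, with 3494, 2788 and 2699.8 CPM. In the 59 members of E13.5 fetal liver, marked ones included, the order was not the same. There 0 of 18 G2/M genes were ordered upwards and 8 downwards (6438, 5276 and 5419 CPM), and 6 of 18 S phase genes upwards and 1 downwards (2649, 3273 and 3252 CPM), over bins of 20, 20 and 19 cells. Over all 8290 measured genes of these bins, 15.6% were ordered upwards and 21.8% downwards. Mki67 or Top2a was detected in 88.4% of all members of E14.5 and 96.6% of E13.5 fetal liver, and in 61.5 and 67.4% of periphery members. Il7r was level over the bins, at 144, 146 and 149 CPM (171, 167 and 157).

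**Figure D5:**
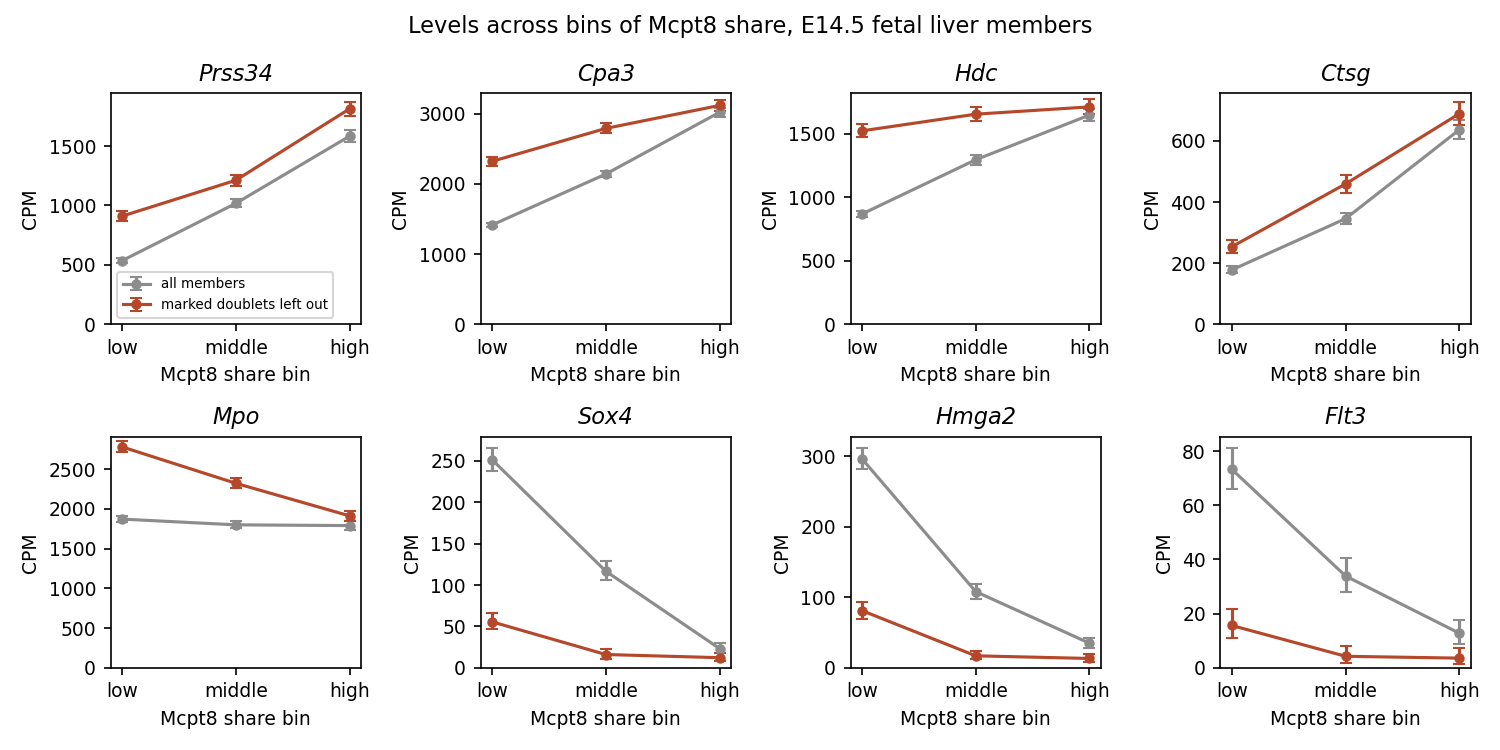
Levels in CPM of 8 genes in E14.5 fetal liver members binned by Mcpt8 share, for all members (grey) and with marked doublets left out (red); error bars are exact Poisson 95% intervals. Prss34, Cpa3 and Ctsg are higher in the high bin on both lines, while Sox4, Hmga2 and Flt3 are highest in the low bin and lie much lower on the red line.

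Cell by cell, the genes most like Mcpt8 over the 727 E14.5 fetal liver members were Tmsb4x (Spearman's rho 0.45), Pfn1 (0.40), Fcer1g (0.40), Cd9 (0.37), Gata2 (0.35), Alox5ap (0.35), Fxyd5 (0.35), Tyrobp (0.35), Itm2b (0.34) and Cpa3 (0.34), out of genes detected in at least 30% of them. Those least like it were Rplp0 (-0.40), Rpl3 (-0.37) and Sox4 (-0.37). These cells share 1 library, and the share of Mcpt8 also fell with total UMIs (-0.34), so the values are a description with no p. The 161 marked doublets are included, which made up 41.2% of the low and 3.72% of the high bin of Mcpt8 share. The part of doublets in these correlations was not tested. Tmsb4x, an actin-binding protein, stood at 15729 CPM in these members against 4205 CPM in other cells.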

How the data were processed

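Single cells of 4 libraries, 1 each for E14.5 and E13.5 fetal liver and E14.5 and E13.5 periphery, were measured by droplet 3' RNA sequencing. The authors deposited UMI counts per gene and barcode as matrices whose headers name Cell Ranger 3.0.0 in the fetal liver files and 3.0.1 in those of periphery. The build was mm10, per the submitters' processing notes. The release of the gene models is not given in the sources used here, and the feature lists held 31053 genes for fetal liver and 28427 for periphery. The sort (live CD45+ F4/80- IL7Ra+ cells) and the kits are given per the labels' protocols.

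UMIs were summed over the cells of a set and scaled to CPM, with exact Poisson 95% intervals, and shares of cells have exact Clopper-Pearson intervals. Log2 folds had 5 CPM added to both levels, and the median of all measured genes (at least 10 CPM and 10 UMIs in either set) was taken off. That median was -0.12, -0.15, -0.26 and -0.18 for members against other cells (E14.5 and E13.5 fetal liver, E14.5 and E13.5 periphery), 0.00 and 0.14 between stages in fetal liver and periphery, and -0.08, -0.09 and -0.10 against granulocyte precursors (E14.5, E13.5) and Gata2+ Mcpt8-negative cells. No test was run, since each group is 1 library. The depth behind each value is the UMI total of its set.

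Doublets were marked with Scrublet in scanpy 1.11.5, at its automatic threshold in fetal liver and at an expected 0.8% per 1000 barcodes in periphery, and were left in. Shares at fixed depth are the expected share of cells with a UMI when thinned to 4000 UMIs. The scripts for folds were tested on simulated data. The members and the gene lists were chosen with earlier results of these data known. The text names genes of these lists, and for each comparison the 12 highest and 12 lowest folds at 30 CPM or more. Promoter windows came from RefSeq tables and gene positions from GENCODE M21, both on GRCm38. Software was python 3.11.15, numpy 2.4.6, scipy 1.17.1, pandas 2.3.3 and matplotlib 3.10.9. The alternatives tried were the thresholds of the rule, the pseudocount, the scaling, the minimum level, doublets and, chosen after seeing the data, leaving out members with high Cma1 or with B cell RNA. Counts over lists that leave out genes of the rule were chosen after seeing the data too. A comparison with mast cells was planned and could not be made, as at most 5 cells of a library met its rule.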

Additional observations from a re-analysis of the deposited data

Results flagged for a closer look

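Barcodes outside the cell filter also held Mcpt8. In E14.5 fetal liver 9 of 388 left-out barcodes had at least 2 Mcpt8 UMIs, a share of 2.32% (exact interval 1.07 to 4.36), above the 0.773% that a count of 0 would allow and below the 6.33% among kept barcodes, and 7 of the 9 had Gata2 too. In E14.5 periphery it was 19 of 503, or 3.78% (2.29 to 5.84), above a limit of 0.596% and above the 2.40% among kept barcodes. Of these 19, 17 had fewer genes than the minimum, their median was 668 UMIs, and 2 held Gata2.

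Gzmb, which encodes granzyme B, went opposite ways between the stages in the 2 tissues. Its log2 fold of E14.5 over E13.5 members was -2.02 in fetal liver (26.1 against 120.5 CPM) and 1.06 in periphery (508 against 219 CPM). The difference between the tissues was not tested, and tissue and kit cannot be told apart. Few cells hold the gene: it was detected in 15.1 and 15.3% of fetal liver members and in 24.6 and 18.6% of periphery members, at E14.5 and E13.5. In E13.5 fetal liver 1 member held 55 of the 148 UMIs there.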

How the results depend on the processing

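No paired analysis was possible because each group holds 1 library, and no replicate could be left out. Of 353 folds of named genes, 316 were past 1 log2 unit, and of 2517 values of these 316 under the alternatives, 2515 had the same direction, 2499 were also still past 1 and 2 reversed. The 2 are the stage folds of Ebf1 in fetal liver, -0.22 without members that hold B cell RNA, and of Cma1 in periphery, -0.35 without the 3 members of high Cma1, both by the cells left out. Folds were named in part for their size, and the alternatives reuse the same counts, so such agreement is no independent check. A gene no longer measured under an alternative gave no value there. Of the B lineage list, 12 genes were measured between stages in fetal liver, and 5 without members that hold B cell RNA.

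The share of members in E14.5 fetal liver was 6.79% with at least 1 Mcpt8 UMI, 5.11% with at least 5, 5.22% without marked doublets and 4.95% after thinning to 4000 UMIs, against 6.21% by the rule. In E13.5 fetal liver it was 0.329% with at least 5 Mcpt8 UMIs, 0.975% at a limit of 5% mitochondrial UMIs (6.63% at E14.5) and 0.251% after thinning, against 0.554%. In periphery it was 2.40% with no Gata2 minimum and 1.05% after thinning at E14.5, against 1.44%, and 0.660% after thinning at E13.5, against 0.999%. In each of these settings that was run at both stages, E14.5 kept the higher share in fetal liver.

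The number of genes past 1 log2 unit moved more. With a minimum of 50 CPM, which tests fewer genes, members against other cells gave 622 and 618 genes in fetal liver and 731 and 633 in periphery (E14.5 and E13.5), against 1084, 1219, 1532 and 1410. The same minimum gave 36 genes between stages in fetal liver and 121 in periphery, against 98 and 386, 476 and 519 against granulocyte precursors, where 887 and 1002 were past the fold, and 406 against Gata2+ Mcpt8-negative cells, where 693 were. Without marked doublets the counts in E14.5 fetal liver were higher, at 2006 against other cells, 1649 against granulocyte precursors and 1588 against Gata2+ Mcpt8-negative cells. A pseudocount of 1 CPM gave 194 genes between stages in fetal liver and 667 in periphery, and a Mcpt8 minimum of 5 UMIs gave 163 in fetal liver; the cause was not tested. The E13.5 fetal liver, E14.5 periphery and E13.5 periphery sets hold 59, 65 and 43 members, so their values rest on few cells.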

Other observations

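Immediate early and heat shock genes, which respond quickly to stimulation, were in part higher in members than in other cells of the same library. Of the list, 8 of 10 measured genes were higher in E14.5 and 6 of 11 in E13.5 fetal liver, and 5 of 11 and 5 of 12 in periphery, with 1 lower at E13.5. Jun stood at 819.7 and 356 CPM in fetal liver members against 174 and 147 CPM in other cells. Glycolysis genes were higher for 4 of 14 measured genes in each fetal liver library, and for 5 of 13 and 6 of 14 in periphery. Beside both lists, 10.8 and 10.8% of all measured genes were higher in fetal liver members and 11.2 and 10.8% in periphery members.

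Some genes known from other cell types were high in members of every library. Fcgr3, an Fc receptor of myeloid and NK cells, was at 556 and 919.7 CPM in fetal liver and 1147 and 1189.5 CPM in periphery members (folds from 3.30 to 4.95 over other cells). Nkg7, a granule protein of cytotoxic lymphocytes, was at 438 and 427 CPM in fetal liver and 697 and 922 CPM in periphery members (3.56, 3.37, 2.45 and 1.66). Apoe, a lipid carrier, stood at 724 and 431 CPM in fetal liver and 1685 and 1170.1 CPM in periphery members.

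Outside the members, 6 further barcodes of periphery held Cma1 at 25 to 208 UMIs with 0 or 1 Mcpt8 UMI, 3 of them at each stage.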
